A study of Mus musculus with 3 samples.

Results

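The genes described here are the calmodulin-dependent protein kinases and the small protein inhibitors of CaMKII, 10 genes of 34617 gene rows in the deposited table. They were found by row name: the inhibitors Camk2n1 and Camk2n2, the CaMKII subunits Camk2a, Camk2b, Camk2d and Camk2g, and the kinases Camk4, Camk1, Camk1d and Camk1g. All 10 had a row. The set was chosen by family name with the ratio of Camk2n1 between the libraries already known as one of the highest, so the differences below describe the genes and support no test.

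Transcript levels come from 2 RNA libraries of the mouse main olfactory epithelium at 4 weeks of age, 1 library per group. The mOSN library was made from mature olfactory sensory neurons sorted as cells positive for OMP-ires-EGFP, a reporter read from the Omp transcript (Omp encodes olfactory marker protein), in strain C57BL/6J. The O/Tet3 library was made from sorted cells of OMP-tTA / tetO-Tet3-GFP mice, labelled Fvb, in which the Omp-driven transactivator switches on a Tet3-GFP transgene in the cells that express Omp. Tet3 oxidises 5-methylcytosine to 5-hydroxymethylcytosine. Strain, reporter, genotype and library differ together and cannot be told apart, and no p-value or replicate error can be given. The labels give neither the gate of the O/Tet3 sort nor the number of animals pooled.

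Calmodulin-dependent kinases turn a rise in intracellular calcium into protein phosphorylation: calcium-bound calmodulin opens the autoinhibited kinase. CaMKII is a multimer built from the alpha, beta, delta and gamma subunits, and it can keep its activity through autophosphorylation after calcium has fallen. Camk2n1 and Camk2n2 encode small proteins that bind the activated enzyme and block it. In olfactory sensory neurons, calcium enters through the cyclic nucleotide-gated channel, and CaMKII is known to phosphorylate the adenylyl cyclase Adcy3 during adaptation to odor.

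The level of a gene is given as the value of the table on its linear scale, which is taken as an abundance per transcript length, as Cuffdiff reports it; the file does not name the unit. The log2 ratio is that of value + 1, O/Tet3 over mOSN, so that differences of genes with low levels come out too small. A fold is the plain ratio of 2 values. Where 2 levels follow a gene without a library name, the mOSN level comes first. A gene was compared when either library put it at 1 or more, and it was called higher or lower when value + 1 differed at least 2-fold. Of the 12943 compared rows, 16.5% were called higher and 12.0% lower in O/Tet3. When all ratios were centred on their median of 0.21 over rows at or above 1 in both libraries, higher rows made up 42.8% of all calls, against 57.9% without centring.

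The RefSeq promoter table (build GRCm38.p6) held 7 entries for 6 of the genes, Camk2n2, Camk2b, Camk2d, Camk1, Camk1d (2 starts) and Camk1g. The 250 bases before the start are shown for the 2 kinase genes called lower in O/Tet3 and for the inhibitor gene Camk2n2, because Tet enzymes act on methylated cytosines, which lie mostly in CpG pairs. CpG pairs are in capitals, and each run reads 5′ to 3′ on the strand of the gene. The runs lie at chr3:126596701-126596950 (plus strand, Camk2d), chr6:113343923-113344172 (minus strand, Camk1) and chr16:20621279-20621528 (minus strand, Camk2n2).
Camk2d: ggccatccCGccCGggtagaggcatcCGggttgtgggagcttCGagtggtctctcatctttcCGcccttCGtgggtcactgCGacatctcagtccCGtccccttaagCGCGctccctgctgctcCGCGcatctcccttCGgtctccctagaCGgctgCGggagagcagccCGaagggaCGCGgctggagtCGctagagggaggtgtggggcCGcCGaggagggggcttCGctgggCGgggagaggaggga
Camk1: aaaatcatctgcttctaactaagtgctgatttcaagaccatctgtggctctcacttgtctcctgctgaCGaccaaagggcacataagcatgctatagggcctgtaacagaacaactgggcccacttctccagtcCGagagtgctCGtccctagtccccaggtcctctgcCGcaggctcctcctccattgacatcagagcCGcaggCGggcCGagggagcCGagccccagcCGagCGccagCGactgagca
Camk2n2: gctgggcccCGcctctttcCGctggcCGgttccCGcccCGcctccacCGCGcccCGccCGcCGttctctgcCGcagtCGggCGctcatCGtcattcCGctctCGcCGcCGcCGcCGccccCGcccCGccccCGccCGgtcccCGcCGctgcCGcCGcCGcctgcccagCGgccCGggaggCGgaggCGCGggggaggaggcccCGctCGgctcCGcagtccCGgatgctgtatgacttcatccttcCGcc

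These upstream runs differ in CpG content. The Camk2n2 run holds 39 CpG pairs, the Camk2d run 23 and the Camk1 run 11, where the median of 32851 promoter entries is 6. Camk2b had 44, the entries of Camk1d 22 and 5, and Camk1g 1. Over the whole window of 300 bases, the ratio of observed to expected CpG had a median of 0.78 in the 7 entries and 0.38 in all entries. The 2 kinase genes called lower thus differ in CpG content, and Camk2b, with the most CpG pairs, was below a value of 1 in both libraries. Each motif was searched on both strands of the 250 bases. The cAMP response element core TGACG, bound by the CREB factors that CaM kinases phosphorylate, was in the runs of Camk1 and Camk2n2 and in 17.8% of all entries. The Ebf core CCCNNGGG, a site of the Ebf factors of olfactory neurons, was in 0 of the 7 runs and in 11.8% of all entries. The GC box GGGCGG was in 5 of the 7 and in 32.7% of all entries, and the homeodomain site TAATTA was in 0 of the 7 and in 4.84% of all.

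The inhibitor gene Camk2n1 and the main CaMKII gene Camk2d stood on opposite sides. Camk2n1 had a value of 1.72 in mOSN against 65.8 in O/Tet3, 38.3-fold higher (log2 ratio 4.62). Among all rows it moved from rank 9615 in mOSN to rank 375 in O/Tet3, and its log2 ratio was number 45 from the top of the 12943 compared rows. It was the sixth of the 10 genes by level in mOSN and the first in O/Tet3. The second inhibitor gene did not share this. Camk2n2 had a value of 2.13 in mOSN against 0.763 in O/Tet3, 2.79-fold lower in its values but within 2-fold of value + 1 (log2 ratio −0.83). In mOSN the Camk2n2 level was 1.24-fold that of Camk2n1, and in O/Tet3 Camk2n1 was 86.1-fold above Camk2n2.

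**Figure D1:**
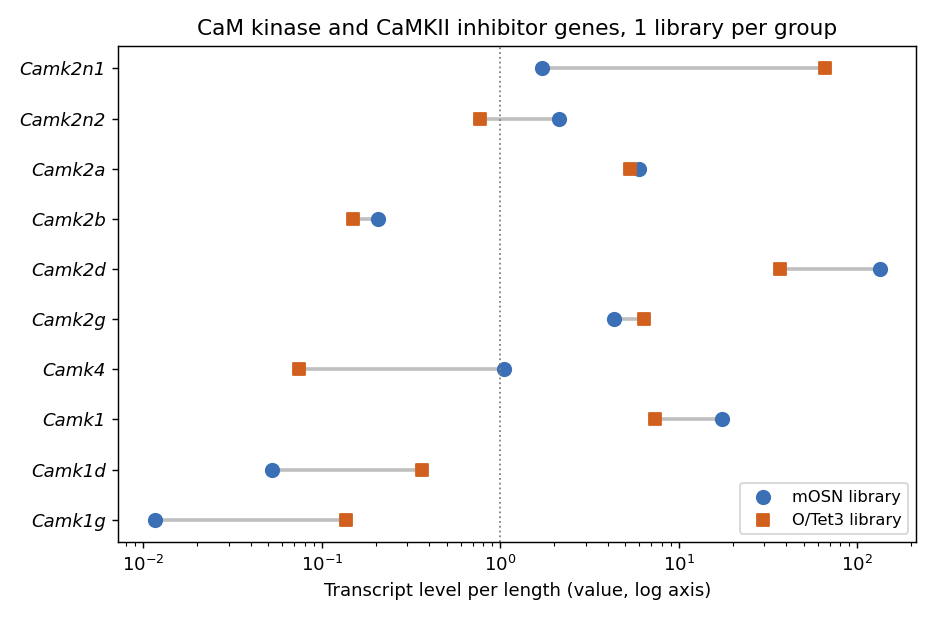
Level of each gene in the mOSN library (circles) and the O/Tet3 library (squares), on a log axis of the value per length; a grey line joins the 2 values of a gene and the dotted line marks a value of 1. Camk2n1 runs from 1.72 to 65.8, opposite to Camk2d, which runs from 134 to 36.9.

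Camk2d, which encodes the delta subunit of CaMKII, was the highest of the 10 genes in mOSN, with a value of 134, and had 36.9 in O/Tet3, 3.64-fold lower (log2 ratio −1.84). Its rank among all rows was 105 in mOSN against 825 in O/Tet3. The other CaMKII genes were lower in level and closer between the libraries. Camk2a, encoding the alpha subunit that dominates in forebrain neurons, was at 5.97 and 5.35. Camk2g, the gamma subunit gene, was at 4.32 in mOSN against 6.41 in O/Tet3, 1.48-fold higher. Camk2b, the beta subunit gene, was at 0.207 and 0.149 and was not compared. Each of these 3 genes differed by less than 2-fold in its values, with log2 ratios from −0.13 to 0.48.

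The summed level of the 4 CaMKII genes was 145 in mOSN against 48.8 in O/Tet3, 2.97-fold lower. Without Camk2d the sum was 10.5 in mOSN against 11.9 in O/Tet3, so that the lower total comes from Camk2d. Camk2d made up 92.7% of the CaMKII sum in mOSN and 75.6% in O/Tet3. The share of Camk2a was 4.12% and 11.0%, that of Camk2g 2.99% and 13.1%, and that of Camk2b 0.143% and 0.306%. Camk2d thus stayed the highest CaMKII gene in both libraries, 22.5-fold above the next subunit gene in mOSN and 5.75-fold in O/Tet3.

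A ratio of 2 genes within a library does not depend on the scaling between libraries. The Camk2n1 level divided by the CaMKII sum was 0.0119 in mOSN against 1.35 in O/Tet3. Put the other way, CaMKII transcripts were 84.2-fold above those of Camk2n1 in mOSN, while in O/Tet3 the inhibitor transcript exceeded the summed kinase transcripts. Relative to Omp, Camk2n1 was at 0.577% in mOSN against 47.2% in O/Tet3, where Omp itself was 2.14-fold lower. These are transcript levels; protein amounts and kinase activity were not measured.

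**Figure D2:**
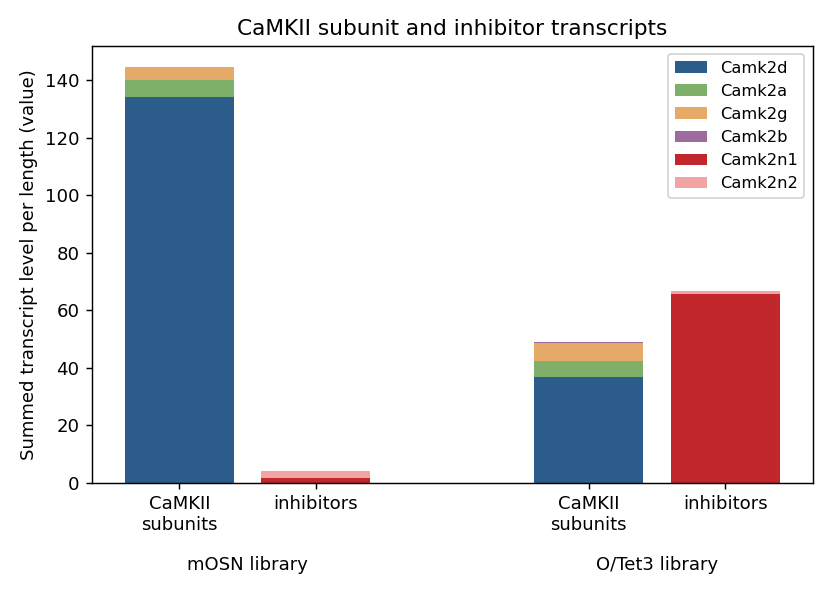
Stacked bars of the values of the 4 CaMKII genes and, beside them, of the 2 inhibitor genes in each library; bars start at 0 and carry no error, since each group has 1 library. The CaMKII bar is 145 in mOSN against 48.8 in O/Tet3, and the inhibitor bar is 3.85 in mOSN against 66.5 in O/Tet3.

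Camk1, a cytosolic kinase gene whose product is switched on by the kinase kinases Camkk1 and Camkk2, was second of the 10 genes in mOSN, with a value of 17.5, and was at 7.36 in O/Tet3, 2.38-fold lower (log2 ratio −1.15). Camk4, encoding a mainly nuclear kinase that phosphorylates CREB, was at 1.04 in mOSN against 0.0745 in O/Tet3, a ratio of 14.0 in the values but within 2-fold of value + 1 (log2 ratio −0.93). The CaMKI relatives Camk1d and Camk1g were low in both libraries and were not compared. Camk1d was at 0.0523 in mOSN against 0.365 in O/Tet3, and Camk1g at 0.0115 and 0.136. Both are far below a value of 1, so no fold is given for them.

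How many reads lie behind such values can be estimated from the receptor genes. In olfactory receptors of under 1200 bases, 1 read was worth a value of about 0.0249 per kilobase in mOSN against 0.0472 in O/Tet3. On that scale Camk2n1 rested on about 69.0 reads per kilobase of transcript in mOSN and about 1394 in O/Tet3, and Camk2d on about 5390 and 782. For Camk2n2 the numbers were about 85.6 and 16.2. Camk4 rested on about 41.9 reads per kilobase in mOSN against 1.58 in O/Tet3, so its ratio is poorly fixed. Camk1d had about 2.10 and 7.74 and Camk1g about 0.463 and 2.89, so the ratios of these genes rest on few reads and no direction is read from them.

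In all, 7 of the 10 genes were compared, 5 of them at or above 1 in both libraries while Camk2n2 and Camk4 passed through mOSN alone. One, Camk2n1, was called higher (1 of 7, where all compared rows gave 16.5%), and 2, Camk2d and Camk1, were called lower (2 of 7, where all rows gave 12.0%). With centred ratios, Camk2n2 (−1.03) and Camk4 (−1.13) were also called, so that 4 of 7 were lower and 1 higher, where all compared rows gave 15.1% lower and 11.3% higher by that rule. By the plain 2-fold ratio of the values, the same 4 genes were lower and Camk2n1 higher; of 12277 compared rows above 0 in both libraries, 13.1% were lower and 24.0% higher by that rule. The median log2 ratio of the 7 genes was −0.83, and that of all compared rows 0.21. Since the genes were chosen with these ratios known, nothing is read from the counts.

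**Figure D3:**
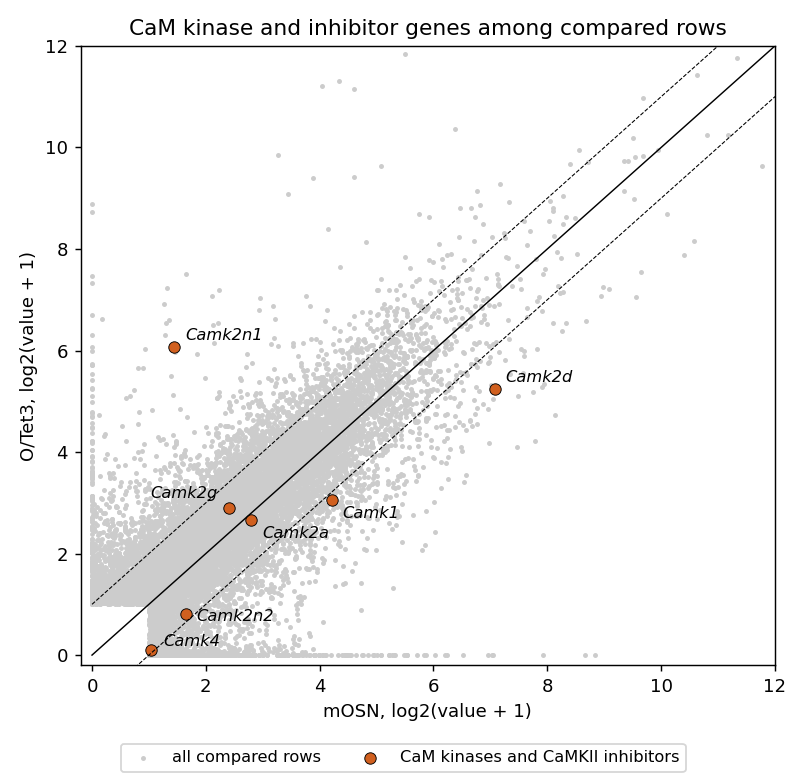
Each grey point is a compared gene row, by its log2(value + 1) in mOSN (x axis) and O/Tet3 (y axis); filled circles are the 7 compared CaM kinase and inhibitor genes, the solid line marks equal values and the dashed lines a 2-fold difference. Camk2n1 lies far above the upper dashed line at log2 ratio 4.62, Camk2d and Camk1 lie below the lower one, and 15 rows fall outside the plotted range of up to 12.

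The sorted cells carried the label's markers in both libraries, at different levels. Tet3 was at 3.72 in mOSN against 145 in O/Tet3. All 12 mature neuron markers were at or above 1 in both libraries. Of the 12, 11 were called lower in O/Tet3, where 12.0% of all compared rows were lower. The summed value of the 12 was 3495 in mOSN against 766 in O/Tet3. Camk2d was 3.64-fold and Camk1 2.38-fold lower, where the folds of the 12 markers ran from 1.17 for Slc17a6 to 10.96 for Ric8b, with a median of 4.63. Fewer mature neurons in the sort and less RNA of these genes per cell cannot be told apart in bulk RNA. Relative to Omp, Camk2d was at 45.1% in mOSN against 26.5% in O/Tet3, while Camk1 was at 5.89% and 5.29%. Omp was at 298 and 139, 2.14-fold lower, which is less than the median of the markers, so these percentages depend on the marker taken. Of the 12 markers, 9 had a larger fold than Camk2d and 3 a smaller one.

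Levels of marker genes for other epithelial cells were set beside Camk2n1. Of 14 immature neuron markers 4 were called higher and 2 lower, where all compared rows gave 16.5% higher and 12.0% lower. The median of their log2 ratios was 0.47 (0.26 centred). Their summed value was 335 in mOSN against 314 in O/Tet3, so the sum and the median differ in direction: the highest marker in mOSN, Stmn4, was at 86.4 and 23.3, and Ncam1 was at 82.7 and 51.7. Sox11 was at 0.383 and 6.05, Gap43 at 6.41 and 34.8 and Stmn1 at 6.72 and 34.7, while Dpysl5 was at 7.98 and 1.46. Progenitor markers summed to 20.2 and 36.7, with 9 of 10 under a value of 1 in mOSN and 8 of 10 in O/Tet3. Summed sustentacular markers were at 26.1 and 7.37, with Ugt2a1 at 15.6 and 2.53. Basal, gland and microvillous markers summed to 5.53 and 4.38, with 10 of 12 under a value of 1 in mOSN and 11 of 12 in O/Tet3. At 0 were 2 of 12 in mOSN and 7 of 12 in O/Tet3. The basal cell keratins Krt5 and Krt14 were at 0.116 and 0.0645 in mOSN and at 0 in O/Tet3. Reads per unit of value were fewer in O/Tet3, so a 0 there says less. Of the 3 compared, 2 were called lower and 1 higher. Each of the 3 was at or above 1 in 1 library only, which fixes its direction, so nothing is read from this count. Ascl3 was at 1.58 in mOSN and Cftr at 1.02, both listed at 0 in O/Tet3. The tuft and microvillous cell factor Pou2f3 was at 0.582 and 2.90, 4.99-fold higher. Trpm5, below a value of 1 in both libraries and not compared, was at 0.378 and 0.538. Foxi1, also not compared, had 0.798 in mOSN against 0 for O/Tet3. These genes of the list thus differed in direction. Glia, blood and vessel markers summed to 67.2 and 42.0, with the hemoglobin gene Hba-a2 at 39.9 and 21.03 and the glial gene Fabp7 at 4.78 and 0.0607. The part of these cells in the Camk2n1 difference was not tested.

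By level in the 2 libraries, the rows most like Camk2n1 were Cpne8, Lrrc17, Crip1 and Kcnh6. Likeness is the distance in the 2 log2(value + 1) values, over 9700 other compared rows without small RNAs, receptors and clone names, and it rests on 2 libraries only. Cpne8, a copine gene for a calcium-dependent membrane-binding protein, was at 1.76 in mOSN against 62.1 in O/Tet3 (distance 0.0857). Lrrc17 was at 1.61 and 44.3 (distance 0.56), Crip1 at 0.852 and 49.2 (0.69), and Kcnh6, a potassium channel gene, at 2.95 and 43.0 (0.81).

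Calmodulin is the calcium sensor that switches on all these kinases. Calm3, one of the genes that encode it, was at 319 in mOSN against 92.8 in O/Tet3, 3.44-fold lower, and was called lower. Calm2, which encodes the same protein, was at 983 in both libraries, so these genes did not differ alike. Similar copies and pseudogenes can make the split of reads between such genes uncertain, which was not examined. Of the calmodulin-like genes, Calml4 was at 0.737 and 0.349 and Calml3 was listed at 0 in both.

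The enzymes upstream of the kinases were set beside other calmodulin-regulated and related kinases. Mknk1 and Mknk2 are relatives of the CaM kinases and are not taken as calmodulin-regulated. Of 17 such genes, 8 were compared, with 0 called higher and 1 lower (median log2 ratio −0.22), where 12.0% of all compared rows were lower. Camkk2 was at 3.51 in mOSN against 3.13 in O/Tet3, and Camkk1 at 0.314 and 0.362. Mknk2, a kinase that phosphorylates the cap-binding factor eIF4E, was the lower gene, at 3.42 and 1.12, 3.04-fold. Its relative Mknk1 was at 4.48 and 9.30, 2.08-fold higher in its values but within 2-fold of value + 1. The death-associated kinase gene Dapk1 was at 8.39 and 4.73, and Cask, a synaptic scaffold with a CaMK-like domain, at 20.01 and 12.3. The level of Camkk2 was thus 1.12-fold lower, beside the 2.38-fold of Camk1, and neither difference has a replicate check.

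Among 11 compared genes of calmodulin-binding regulators, 3 were called higher and 1 lower (median log2 ratio 0.36). All compared rows gave 16.5% higher and 12.0% lower. Marcks, an actin- and calmodulin-binding substrate of protein kinase C, was at 3.57 in mOSN against 32.5 in O/Tet3, 9.09-fold higher, and the growth cone protein gene Gap43 was 5.43-fold higher. Pcp4, a small modulator of calmodulin and the third gene called higher, was listed at 0 in mOSN but at 1.78 in O/Tet3. It was thus compared through O/Tet3 alone. Its relative Pcp4l1, the highest gene of the group in mOSN, was at 200.1 and 99.6. This was 2.01-fold lower in its values and just under the limit in value + 1. The lower gene was Camta2, a calmodulin-binding transcription activator, at 3.48 and 0.725. Gap43 is also in the immature neuron list.

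Calcineurin, the calmodulin-activated phosphatase, had compared genes in both directions: of 9 in its group 2 were called higher and 1 lower (median 0.24). The shares over all compared rows were 16.5% higher and 12.0% lower. Akap5, an anchor that holds calcineurin and protein kinase A at membranes, was at 0.661 in mOSN against 13.7 in O/Tet3, 20.8-fold higher. Ppp3ca, a catalytic subunit gene and the highest of the group, was at 47.5 and 95.9, 2.02-fold in its values and just under the limit in value + 1. Another catalytic subunit gene, Ppp3cc, was lower, at 13.1 and 4.16, and the regulator gene Rcan1 higher, at 2.30 and 5.65. The genes of phosphatases that act on CaM kinases were grouped with genes of phosphatase inhibitors, and this group was closer. Of 8 compared, 0 were called higher and 1 lower (median 0.37). The lower gene, that of the protein phosphatase 1 inhibitor Ppp1r1a, was at 20.8 and 6.16. Another inhibitor gene, Ppp1r2, was at 6.07 and 10.7. The catalytic subunit genes of protein phosphatase 1, Ppp1cc and Ppp1ca, were at 8.38 and 16.8 and at 27.9 and 41.6.

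Transcription factors and cofactors downstream of CaM kinases were mostly within 2-fold. Of 15 compared, 0 were called higher and 2 lower (median −0.28), where all compared rows gave 16.5% higher and 12.0% lower. The lower genes were Mef2b, a MEF2 factor, at 4.07 in mOSN against 0.960 in O/Tet3, and Hdac9, a class II deacetylase that binds MEF2 factors, at 18.6 and 8.55. Hdac5, a deacetylase gene of the same class, was at 4.50 and 2.20, Mef2a at 27.5 and 19.3, and the gene of the CaM kinase target CREB, Creb1, at 11.5 and 7.67.

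The calmodulin-regulated cyclases, phosphodiesterases and channels held the odor transduction genes. Of 10 compared, 5 were called lower and 0 higher (median −1.02), where all compared rows gave 12.0% lower and 16.5% higher. The median was −0.0714 over all 18 genes with no floor, which adds genes near 0, and −1.76 at a floor of 5. Cnga2, the main subunit gene of the olfactory channel, was at 238 in mOSN against 37.9 in O/Tet3, and Cngb1, the subunit with a calmodulin site, at 77.7 and 15.7. The calmodulin-dependent phosphodiesterase gene Pde1c was at 131 and 31.9, and Adcy3, the CaMKII substrate, at 115 and 29.7, 3.88-fold lower beside the 3.64-fold of Camk2d. Cnga4 was the other lower gene, at 110 and 35.7. Of these 5, all but Pde1c are also in the mature neuron marker list.

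**Figure D4:**
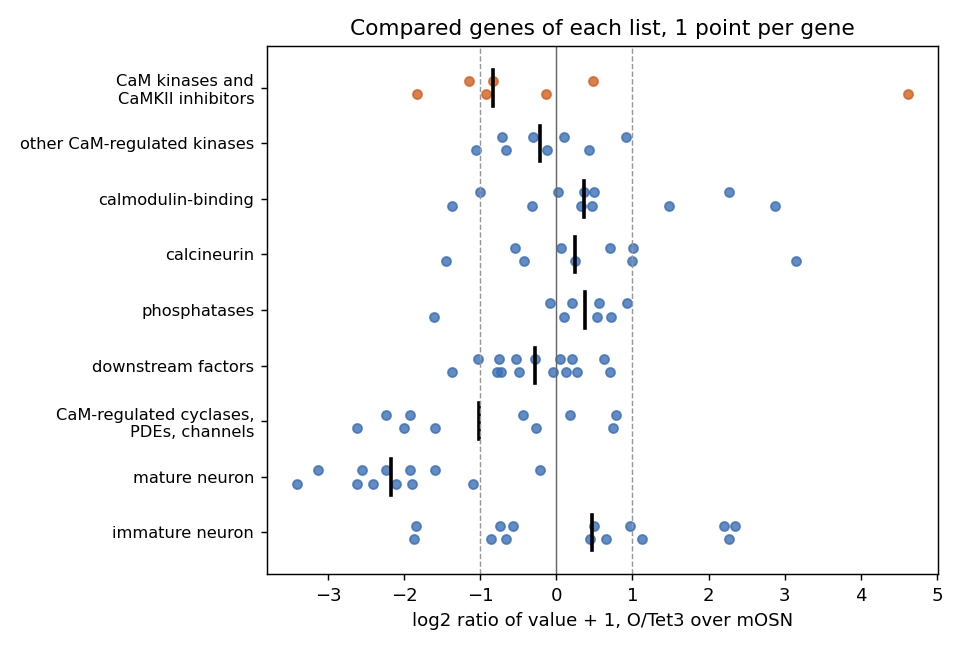
Log2 ratio of value + 1, O/Tet3 over mOSN, for each compared gene (points) of each list, with the list median as a black bar and dashed lines at a 2-fold difference; vertical scatter within a list carries no meaning. Camk2n1, at 4.62, is the point farthest to the right, and the mature neuron markers have the lowest median, −2.17. The list labelled other CaM-regulated kinases also holds the related genes Mknk1 and Mknk2. The list labelled phosphatases also holds genes of phosphatase inhibitors.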

How the data were processed

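RNA of sorted cells was depleted of ribosomal RNA and made into ScriptSeq libraries, per the labels' protocols. Per the submitters' processing notes, the tools were Bowtie, Bowtie2 and Cuffdiff and the build mm9, with no version or role; the annotation and strand setting are not given in the sources used here, so reads of overlapping or antisense genes cannot be separated. The authors' deposited table gives log2 values, found to be log2(value + 1): after back-transformation, 99.4% of mOSN and 99.3% of O/Tet3 values above 0.01 had at most 6 significant digits (relative tolerance 1e-09). Columns were assigned by name, and the Tet3 values go with that.

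Total reads are not in the file. Receptor values times length came within 0.1 of a whole number of reads in 83.9% (mOSN) and 75.4% (O/Tet3) of receptors at under 5.5 reads. These were 118 receptors in mOSN and 199 in O/Tet3. The value of 1 read was set from 16 of them in mOSN and 75 in O/Tet3. Those lie near 1 read by construction, so the shares are no independent check of it. The pseudocount was 1 and the floor 1. The deposited 5-hydroxymethylcytosine sample is not analysed here. Members and lists were chosen with earlier results of these data known. Named genes are the members, Tet3, Omp, calmodulin genes (1 result is not reported here), per pathway list the 3 largest ratios in size and the highest value, and the 4 rows nearest Camk2n1; the other genes named, the marker genes included, were chosen after their values were seen. Chp1 had no row under that symbol. Alternatives were a pseudocount of 0.1, centring, upper quartile scaling, other floors and folds, and leaving out Camk2d. Python 3.11.15, pandas 2.3.3 and matplotlib 3.10.9 were used.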

Additional observations from a re-analysis of the deposited data

How the results depend on the processing

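No paired analysis was possible because there is 1 library per group, and none could be left out for the same reason. The Camk2n1 log2 ratio of 4.62 was 5.18 with a pseudocount of 0.1, 4.41 after centring and 4.38 with upper quartile scaling; the Camk2d ratio of −1.84 was −1.86, −2.04 and −2.08. Camk2n1 was the 1 gene called higher of the members under each of the 8 alternatives. The 2 members called lower became 4 with a pseudocount of 0.1, with centring and with the plain ratio of values, and 1 at 3-fold. Over all compared rows, the 2135 higher and 1552 lower rows became 3025 and 2025 with a pseudocount of 0.1, 1464 and 1953 centred, 745 and 673 past 3-fold, 1401 and 793 above a floor of 5, and 1898 and 888 without rows at 0, small RNAs and receptors (an alternative chosen after seeing the data). Without Camk2d in the sum, the Camk2n1 to CaMKII ratio was 0.164 in mOSN against 5.52 in O/Tet3. Signs changed for Camk1g, −0.038 when centred, which subtracts 0.21 from every ratio. The sign also changed for the median of upstream, calmodulin-regulated and related kinases, 0.0457 with no floor, which adds genes near 0. Medians were recomputed for the lists plotted, without the members, and for the sustentacular, basal and glia lists. The other medians kept their sign, but several moved by over 1.5 times with the floor, as that of calcineurin genes (0.24) to 0.0452 with no floor and 0.71 at a floor of 5. With a pseudocount of 0.1, that of basal, gland and microvillous markers went from −1.01 to −3.48. That median rests on 3 compared genes, each at or above 1 in 1 library only. Reads per unit of value were fewer in O/Tet3. Few reads limit Camk4 and Camk2b most in O/Tet3, and Camk1d and Camk1g most in mOSN.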

Other observations

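Other kinase genes, added after seeing the data, were set beside the CaM kinases. Of 8 protein kinase C genes with a row, 5 were compared. Prkcd was called higher, at 1.07 in mOSN against 3.21 in O/Tet3, and Prkce lower, at 3.23 and 0.374. Over all compared rows 16.5% were higher and 12.0% lower. Prkci was at 11.3 and 17.3, Prkcz at 10.04 and 6.17 and Prkca at 0.520 and 1.22. The genes of the small inhibitors of protein kinase A did not share the pattern of Camk2n1. Pkia was at 47.8 in mOSN against 32.7 in O/Tet3, Pkib at 39.1 and 22.8, and Pkig at 6.65 and 4.44, each within 2-fold.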
